A study of Homo sapiens with 12 samples.

Results

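Cathepsins are the proteases of the lysosome, and cystatins are the small proteins that block the cysteine cathepsins. The 10 genes described here are 7 cathepsins (CTSB, CTSC, CTSD, CTSH, CTSL, CTSS and CTSV) and 3 cystatins (CSTA, CSTB and CST6), of 58735 genes in the deposited table. They were taken by gene symbol, and each symbol had 1 identifier, so no level decided between identifiers. The list itself was chosen by gene family with FPKM values of these libraries in view. Which of those values weighed in the choice is not recorded, so the p-values below describe the fit and are no independent evidence. The cells were HaCaT, a line of immortalised human keratinocytes, transfected with siRNA against PHGDH or with a control siRNA, and studied without further treatment or after 24 h with a stimulus that the labels name only Mix. PHGDH makes the enzyme that starts serine synthesis. The groups are PHGDH-siRNA+Mix, Control-siRNA+Mix, PHGDH-siRNA and Control-siRNA, with 3 libraries each. All cells carried an siRNA, and no untransfected cells were analysed here. The labels give neither the siRNA sequences nor the contents of Mix. They also do not say that replicates were separate cultures, so the p-values speak only to library-to-library spread, which may be technical.

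Most cathepsins are papain-like cysteine proteases made as inactive precursors and activated in acid compartments. CTSB, CTSL, CTSS and CTSV cut inside proteins or from their ends, CTSC removes dipeptides and activates the serine proteases of leukocyte granules, CTSH trims single residues from the amino terminus, and CTSD is an aspartic protease that cystatins do not inhibit. In epidermis these enzymes take part in keratinocyte differentiation, and CTSV, also called cathepsin L2, is known from thymus, testis, cornea and epidermis. CSTA and CSTB are cytosolic inhibitors (stefins), and CSTA is also built into the cornified envelope. CST6 is secreted, inhibits CTSV, CTSL and the related protease legumain, and its loss disturbs cornification.

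Levels are FPKM (fragments per kilobase of gene, scaled to library size), as deposited by the authors, with mean ± SD over the 3 libraries of a group. Changes are on the log2(FPKM + 1) scale, which understates those of low genes, with the standard error (SE) from limma fitted to all 12 libraries and adjusted by Benjamini-Hochberg over 14577 genes, and a gene is called at an adjusted p under 0.05. The reads recovered from the values came to 16403845 to 20901128 per library. PHGDH itself stood at 19.1, 13.3 and 11.5 FPKM in PHGDH-siRNA+Mix against 31.9, 31.2 and 26.6 FPKM in Control-siRNA+Mix, and at 23.7, 20.1 and 16.9 FPKM in PHGDH-siRNA against 36.5, 56.2 and 45.8 FPKM in Control-siRNA. The 6 listed keratinocyte markers were detected in every library. Their lowest values were 527 FPKM for KRT14, 483 for SFN, 233 for KRT5, 75.1 for PERP, 22.1 for TP63 and 10.6 for DSG3. They summed to 3450 to 6039 FPKM in PHGDH-siRNA+Mix against 1946 to 5860 FPKM in PHGDH-siRNA. In the control arm the sum was higher with Mix without overlap, at 3317 to 3663 FPKM against 1522 to 2339 FPKM. Of the leukocyte markers, PTPRC was at 0 in all 12 libraries, and the sum over the list is given beside CTSS. Replicate 2 of both PHGDH-siRNA groups stood apart from the other libraries of its group: 33.2% (PHGDH-siRNA) and 34.7% (PHGDH-siRNA+Mix) of the tested genes lay more than 0.5 log2 units from the mean of the other libraries, against 3.7% to 24.7% in the other 10. Next came replicate 1 of PHGDH-siRNA+Mix (24.7%), PHGDH-siRNA (20.1%) and Control-siRNA (19.5%). Control-siRNA replicate 1 also had 7.08% mitochondrial reads, against 3.81% to 5.56% in the other libraries. The main results that rest on the replicate 2 libraries are given with and without them.

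With Mix, CTSB, CTSC, CTSL and CTSS were higher and CTSV was lower in both siRNA arms. Under PHGDH siRNA 5 of the 10 members were called, 4 up (CTSB, CTSS, CTSL and CTSC) and 1 down (CTSV), where 8.86% of all tested genes were called, 5.22% up and 3.64% down. Under control siRNA 7 members were called, 5 up (CTSB, CTSS, CTSL, CTSC and CSTB) and 2 down (CTSH and CTSV), where 9.54% of all tested genes were called, 5.62% up and 3.92% down. The count of 7 was 4 (CTSB, CTSC, CTSS and CTSV) without Control-siRNA replicate 1 or 3 or any Control-siRNA+Mix library, and with no filter on low values. Fewer genes of any kind were called there: 651 to 1221 of 14577 with a library left out and 939 of 32520 with no filter. The main fit called 1391. With median scaling CTSH and CSTB were not called under control siRNA, while 1327 of all tested genes were. The count of 5 was 3 in a fit of the PHGDH-siRNA groups alone, where 238 of all tested genes were called, against 1291 in the main fit. Without replicate 2 of both PHGDH-siRNA groups, CTSH and CSTA were added under PHGDH siRNA and CSTA under control siRNA. Calls over all tested genes rose there too, to 2199 under PHGDH siRNA and 3063 under control siRNA. Libraries of the same number in PHGDH-siRNA+Mix and PHGDH-siRNA deviated together. With the replicate number as a block in that arm, an alternative chosen after seeing the data, 7 members were called there. CTSH and CSTA were the ones added, and the calls over all tested genes rose as well, to 3284. The groups did not overlap for 5 members that were higher with Mix and 1 that was lower under PHGDH siRNA, where 21.5% of all tested genes did not overlap in either direction, and for 6 higher and 2 lower under control siRNA, where 37.8% did not. The median change of the members was 0.59 under PHGDH siRNA and 0.76 under control siRNA, beside 0.00 over all tested genes in either arm. The 2 comparisons share no library, but they share the variance fitted over all 12 libraries, so their p-values are not independent. In bulk RNA, fewer cells of a type and less RNA per cell cannot be told apart.

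**Figure D1:**
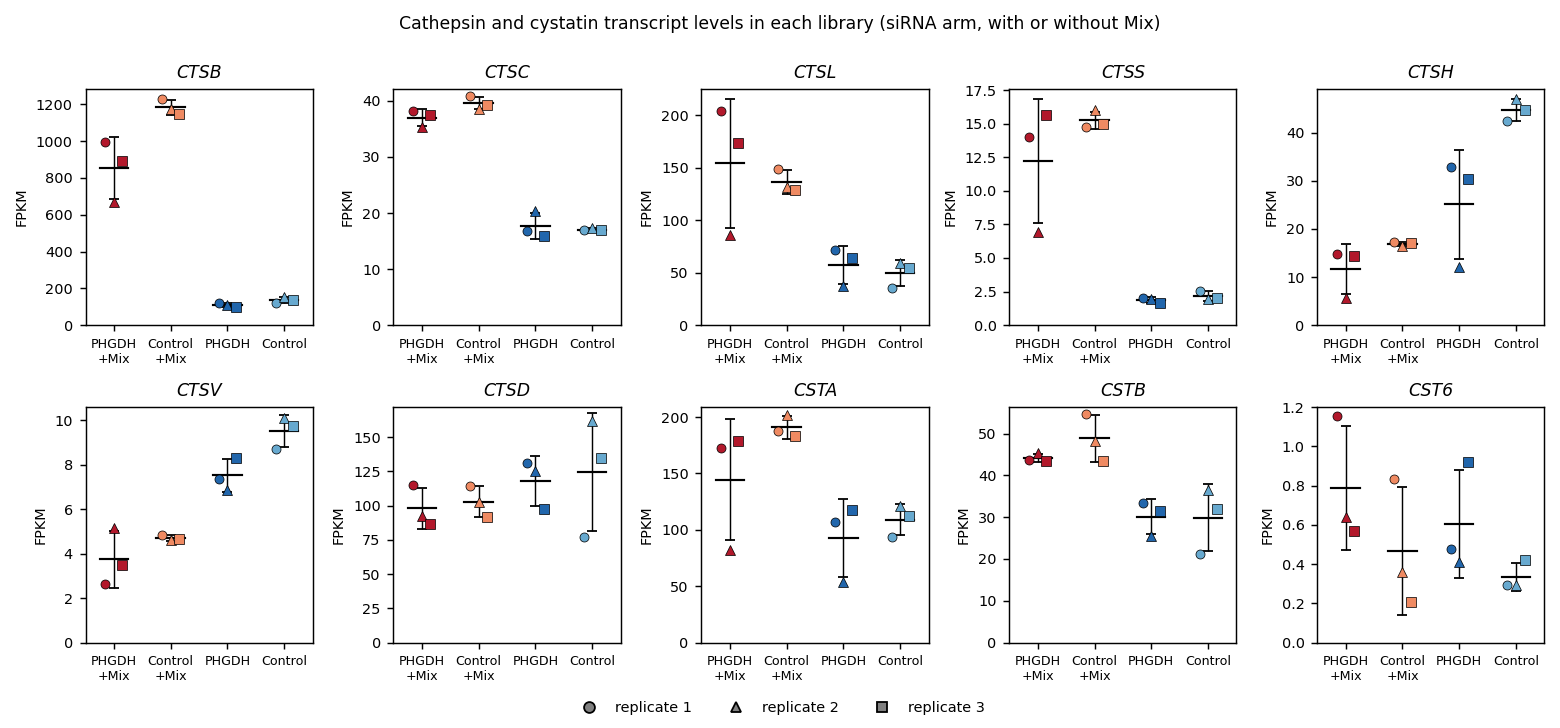
FPKM (linear axis from 0) of each member in the 4 groups, named by siRNA and Mix; points are libraries, with a shape per replicate, and bars are mean ± SD (n = 3). CTSB, CTSC, CTSL and CTSS lie higher in both Mix groups than without Mix, CTSV lies lower, and replicate 2 is the lowest of PHGDH-siRNA+Mix for CTSB, CTSC, CTSL, CTSS, CTSH and CSTA.

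CTSB (ENSG00000164733, hg38 chromosome 8, 11842524 to 11869448, minus strand), an abundant lysosomal protease that cuts inside proteins and removes dipeptides from their ends, had the largest change of the family. It stood at 998, 667 and 890 FPKM in PHGDH-siRNA+Mix, against 122, 111 and 97.9 FPKM in PHGDH-siRNA. Under control siRNA the values were 1227, 1176 and 1147 FPKM in Control-siRNA+Mix, against 120, 152 and 138 FPKM in Control-siRNA. Every library with Mix was above every library without it. The means differed 7.73-fold under PHGDH siRNA (log2 fold change 2.92, SE 0.168, adjusted p = 2.50e-06) and 8.68-fold under control siRNA (3.11, SE 0.168, adjusted p = 1.03e-06). Ranked by p-value, CTSB was gene 13 of those tested under PHGDH siRNA and gene 15 under control siRNA. It passed from second or first place among the members without Mix to the most abundant member by a wide margin with it.

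CTSS (ENSG00000163131, chromosome 1, 150730196 to 150765957, minus strand), a cathepsin that stays active near neutral pH and is best known for processing the invariant chain in antigen-presenting cells, was the scarcest cathepsin without Mix. It stood at 14.0, 6.95 and 15.6 FPKM in PHGDH-siRNA+Mix, against 2.04, 1.95 and 1.65 FPKM in PHGDH-siRNA. In the other arm it stood at 14.8, 16.0 and 14.98 FPKM in Control-siRNA+Mix, against 2.56, 1.96 and 1.99 FPKM in Control-siRNA. The groups did not overlap in either arm, and replicate 2 of PHGDH-siRNA+Mix held less than any other library with Mix. The change was 2.13 under PHGDH siRNA (SE 0.229, adjusted p = 0.000227) and 2.36 under control siRNA (SE 0.229, adjusted p = 8.52e-05). Leukocytes are a known source of CTSS. Their 7 listed markers summed to 0.482 to 2.07 FPKM in PHGDH-siRNA+Mix against 0.468 to 2.87 FPKM in PHGDH-siRNA, and to 2.17 to 2.96 FPKM in Control-siRNA+Mix against 1.57 to 2.02 FPKM in Control-siRNA, higher with Mix without overlap in the control arm. PTPRC was at 0 in all libraries, CD14 reached 2.83 FPKM and ITGAM 0.412 FPKM, and the part of these cells in the result was not tested. Of the 6 genes listed for the MHC class II pathway, in which CTSS works, 2 were abundant enough to be tested and 0 were called by limma in any comparison.

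CTSC (ENSG00000109861, chromosome 11, 88293592 to 88337787, minus strand), the dipeptidyl peptidase whose inherited loss thickens the skin of palms and soles, was also higher with Mix in every library. It stood at 38.3, 35.3 and 37.5 FPKM in PHGDH-siRNA+Mix, against 16.8, 20.3 and 15.9 FPKM in PHGDH-siRNA. Under control siRNA the values were 40.8, 38.6 and 39.3 FPKM in Control-siRNA+Mix, against 16.9, 17.3 and 16.9 FPKM in Control-siRNA. It rose by 1.03 under PHGDH siRNA (SE 0.109, adjusted p = 0.000186) and by 1.17 under control siRNA (SE 0.109, adjusted p = 5.73e-05), with no overlap. CTSB, CTSS and CTSC stayed called under all 22 alternatives tried under PHGDH siRNA and all 21 under control siRNA.

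CTSL (ENSG00000135047, chromosome 9, 87725519 to 87731393, plus strand) and CTSV (ENSG00000136943, chromosome 9, 97029679 to 97039643, minus strand) are close paralogs, and the human pair stands for a single cathepsin L of the mouse. They moved in opposite directions. CTSL stood at 204, 85.5 and 173 FPKM in PHGDH-siRNA+Mix, against 71.7, 36.9 and 63.7 FPKM in PHGDH-siRNA, and at 149, 132 and 128 FPKM in Control-siRNA+Mix, against 35.5, 59.4 and 54.1 FPKM in Control-siRNA. All libraries with Mix were higher, and replicate 2 was the lowest of either PHGDH-siRNA group. The change was 1.37 under PHGDH siRNA (SE 0.336, adjusted p = 0.0282) and 1.47 under control siRNA (SE 0.336, adjusted p = 0.0196). These calls depended on single libraries: the one under control siRNA was lost without Control-siRNA replicate 1 or 3 or any of the 3 Control-siRNA+Mix libraries (adjusted p = 0.0576 to 0.0790), and the one under PHGDH siRNA without PHGDH-siRNA replicate 2 or 3 or PHGDH-siRNA+Mix replicate 1 or 3 (adjusted p = 0.0650 to 0.108). With no filter on low values neither was made (adjusted p = 0.0866 under PHGDH siRNA and 0.0603 under control siRNA), and a fit of the PHGDH-siRNA groups alone did not call CTSL (adjusted p = 0.177). Without replicate 2 of both PHGDH-siRNA groups CTSL was called in both arms (adjusted p = 0.00275 under PHGDH siRNA and 0.000635 under control siRNA). With the replicate block in the PHGDH-siRNA arm CTSL was called there (adjusted p = 0.000731), but that block was chosen from these data.

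CTSV stood at 2.64, 5.16 and 3.47 FPKM in PHGDH-siRNA+Mix, against 7.38, 6.88 and 8.33 FPKM in PHGDH-siRNA. In the other arm it stood at 4.86, 4.61 and 4.66 FPKM in Control-siRNA+Mix, against 8.73, 10.1 and 9.74 FPKM in Control-siRNA. Each library with Mix was below each library without it, and here replicate 2 was the highest of PHGDH-siRNA+Mix. CTSV fell by 0.87 on the log2 scale under PHGDH siRNA (SE 0.168, adjusted p = 0.00893) and by 0.88 under control siRNA (SE 0.168, adjusted p = 0.00755), and a fit of the PHGDH-siRNA groups alone did not call it (adjusted p = 0.128). The ratio of CTSL to CTSV in a library was 16.6 to 77.3 in PHGDH-siRNA+Mix against 5.37 to 9.72 in PHGDH-siRNA, and 27.5 to 30.7 in Control-siRNA+Mix against 4.07 to 5.88 in Control-siRNA. No stretch of 50 bases in the annotated CTSV transcripts (4697 distinct stretches) occurred in a CTSL transcript.

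The pair also has related promoters, which are shown because the 2 genes moved apart under Mix. The 250 bases before the RefSeq start (build GRCh38.p14) were chr9:87725869-87726118, plus strand, for CTSL and chr9:97039143-97039392, minus strand, for CTSV. Both windows lie inside the gene spans given above, which begin upstream of these RefSeq starts. They are therefore not upstream of every annotated transcript. Aligned end to end, they were identical at 174 of 264 alignment columns (65.9%). The longest run they share exactly is 23 bases, in capitals below, which lies 96 to 74 bases before the start of CTSL and 86 to 64 bases before that of CTSV. The run holds CCAAT, here as GCCAATC.
CTSL: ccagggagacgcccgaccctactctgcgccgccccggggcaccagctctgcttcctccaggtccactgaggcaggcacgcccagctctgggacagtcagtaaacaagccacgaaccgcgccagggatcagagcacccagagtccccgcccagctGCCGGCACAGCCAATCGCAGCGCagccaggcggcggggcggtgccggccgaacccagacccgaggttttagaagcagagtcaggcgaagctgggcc
CTSV: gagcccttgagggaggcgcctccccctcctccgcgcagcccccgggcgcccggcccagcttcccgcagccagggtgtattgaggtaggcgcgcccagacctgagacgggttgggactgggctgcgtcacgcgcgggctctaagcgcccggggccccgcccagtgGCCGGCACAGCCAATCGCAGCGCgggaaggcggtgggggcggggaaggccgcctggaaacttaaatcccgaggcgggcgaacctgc
Promoters of 5 of the 10 members were at hand (CTSC, CTSD, CTSH, CTSL and CTSV). The STAT-type motif TTCNNNGAA, searched on both strands, occurred in 0 of these 5 windows and in 6.57% of all 35116 promoter windows of 250 bases.

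CTSH (ENSG00000103811, chromosome 15, 78921058 to 78949574, minus strand), the aminopeptidase of the family, was lower with Mix in every library of the control arm. It stood at 14.8, 5.58 and 14.4 FPKM in PHGDH-siRNA+Mix, against 32.8, 12.1 and 30.5 FPKM in PHGDH-siRNA, with overlap between the groups, replicate 2 being low in both. Its values were 17.3, 16.5 and 17.1 FPKM in Control-siRNA+Mix, against 42.4, 47.0 and 44.7 FPKM in Control-siRNA, without overlap. Under control siRNA the change was -1.35 (SE 0.377, adjusted p = 0.0481). That call was at the threshold: it was lost without any single library of the Control-siRNA and Control-siRNA+Mix groups (adjusted p = 0.0962 to 0.138) and without replicate 3 of PHGDH-siRNA (adjusted p = 0.0606) or of PHGDH-siRNA+Mix (adjusted p = 0.0592). It was also lost with a pseudocount of 0.1 (adjusted p = 0.0545), median scaling (0.0525) and no filter on low values (0.128). Under PHGDH siRNA the change was -1.04 (SE 0.377, adjusted p = 0.125). Without replicate 2 of both PHGDH-siRNA groups CTSH was called in both arms, at -1.06 under PHGDH siRNA (adjusted p = 0.000137) and -1.35 under control siRNA (adjusted p = 5.12e-06), and without replicate 2 of PHGDH-siRNA alone the change there was -1.48 (adjusted p = 0.0142). Library by library, CTSH was lower in PHGDH-siRNA+Mix than in the PHGDH-siRNA library of the same number in 3 of 3. With the replicate block in that arm CTSH was called (-1.04, adjusted p = 2.24e-05). The pairs were taken from deviations in these data and not from the labels. Neither the 3 of 3 nor this p-value is therefore independent evidence.

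CTSD (ENSG00000117984, chromosome 11, 1752752 to 1764573, minus strand), the aspartic protease, was not called under Mix. It stood at 115, 92.7 and 86.5 FPKM in PHGDH-siRNA+Mix, against 131, 125 and 97.3 FPKM in PHGDH-siRNA, and at 114, 103 and 91.9 FPKM in Control-siRNA+Mix, against 77.5, 162 and 135 FPKM in Control-siRNA. The groups overlapped in both arms, and Control-siRNA replicate 1 was the lowest of all 12 libraries. The 95% interval of the change ran from -0.81 to 0.28 under PHGDH siRNA and from -0.75 to 0.33 under control siRNA, which leaves room for a modest change in either direction. CTSD was the only one of the 5 promoters with CACGTG, the E-box core found in many lysosomal genes and present in 6.35% (both strands) of all windows. It lies 47 to 42 bases before the RefSeq start, in capitals in the window chr11:1763928-1764177, minus strand, GRCh38.p14. This window, too, lies inside the gene span given above.
CTSD: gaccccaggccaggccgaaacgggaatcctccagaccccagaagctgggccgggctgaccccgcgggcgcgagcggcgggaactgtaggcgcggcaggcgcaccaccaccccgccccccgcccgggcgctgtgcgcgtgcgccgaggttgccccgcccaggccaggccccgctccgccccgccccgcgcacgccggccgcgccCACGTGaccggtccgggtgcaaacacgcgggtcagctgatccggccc
In the annotation 36.5% of the 50-base stretches of CTSD transcripts also occur in another gene. Most are shared with AC068580.4, an overlapping gene of the same strand. AC068580.4 held at most 10 reads in a library, while CTSD held at least 4367. How reads common to both genes were counted is not given in the sources used here, and an undercount of CTSD was not tested.

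The cystatins had smaller fold changes than CTSB and CTSS. CSTA (ENSG00000121552, chromosome 3, 122325244 to 122341972, plus strand), the stefin of the cornified envelope, stood at 172, 82.5 and 179 FPKM in PHGDH-siRNA+Mix, against 107, 53.4 and 118 FPKM in PHGDH-siRNA, and these groups overlapped. Under control siRNA it stood at 188, 202 and 183 FPKM in Control-siRNA+Mix, against 94.0, 121 and 112 FPKM in Control-siRNA, without overlap. Limma called neither change (0.63, SE 0.327, adjusted p = 0.296 under PHGDH siRNA, and 0.81, adjusted p = 0.169 under control siRNA). Without replicate 2 of both PHGDH-siRNA groups, which were both low in CSTA, it was called in both arms (0.64, adjusted p = 0.0131 under PHGDH siRNA, and 0.81, adjusted p = 0.00104 under control siRNA), and a fit of the control groups alone called it there too (adjusted p = 0.00631). CSTA was higher in PHGDH-siRNA+Mix than in the PHGDH-siRNA library of the same number in 3 of 3. With the replicate block in that arm CSTA was called (0.63, adjusted p = 0.00281). As for CTSH, the pairs came from the data, so neither result is independent evidence.

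CSTB (ENSG00000160213, chromosome 21, 43772511 to 43776445, minus strand), the broadly expressed stefin whose loss causes a progressive myoclonus epilepsy, stood at 43.7, 45.2 and 43.4 FPKM in PHGDH-siRNA+Mix, against 33.4, 25.5 and 31.5 FPKM in PHGDH-siRNA. Under control siRNA the values were 54.8, 48.3 and 43.5 FPKM in Control-siRNA+Mix, against 21.2, 36.6 and 31.9 FPKM in Control-siRNA. The groups did not overlap in either arm. The change was called under control siRNA (0.72, SE 0.187, adjusted p = 0.0353) and not under PHGDH siRNA (0.54, SE 0.187, adjusted p = 0.106). The first call was lost without Control-siRNA replicate 1 or 3, any Control-siRNA+Mix library, or replicate 3 of either PHGDH-siRNA group (adjusted p = 0.0539 to 0.137). It was also lost with no filter on low values (adjusted p = 0.0921), median scaling (0.0655) and a fit of the control groups alone (0.0607). The second change was called without Control-siRNA replicate 1 (adjusted p = 0.0272) and with quantile normalization (adjusted p = 0.0454).

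CST6 (ENSG00000175315, chromosome 11, 66011841 to 66013505, plus strand), the secreted inhibitor, was close to the limit of detection, with 3 to 17 reads per library. It stood at 1.15, 0.641 and 0.570 FPKM in PHGDH-siRNA+Mix, 0.832, 0.358 and 0.208 FPKM in Control-siRNA+Mix, 0.477, 0.412 and 0.918 FPKM in PHGDH-siRNA and 0.292, 0.295 and 0.418 FPKM in Control-siRNA. It entered the test through the PHGDH-siRNA groups, which alone averaged 0.5 FPKM or more. All groups overlapped with their neighbours, and no difference was detected at this depth.

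**Figure D2:**
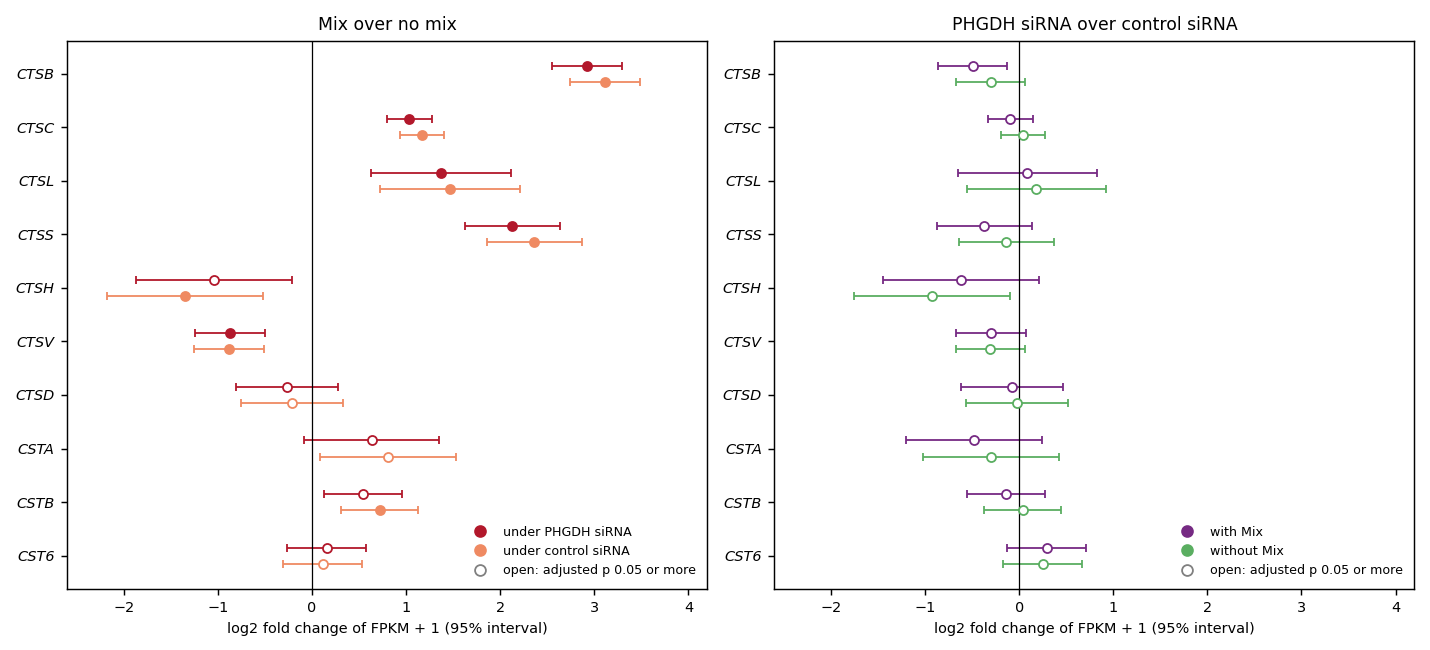
Log2 fold change of FPKM + 1 with its 95% interval for each member, Mix over no Mix on the left and PHGDH siRNA over control siRNA on the right; filled points have an adjusted p under 0.05. Filled points occur only on the left, from -1.35 (CTSH) to 3.11 (CTSB) under control siRNA.

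Added up, the 7 cathepsins came to 1169 ± 248 FPKM in PHGDH-siRNA+Mix against 338 ± 40.0 FPKM in PHGDH-siRNA, and to 1499 ± 63.2 FPKM in Control-siRNA+Mix against 384 ± 74.3 FPKM in Control-siRNA (SD, n = 3 each). Most of the difference was CTSB, which made up 73.1% of the sum in PHGDH-siRNA+Mix against 32.7% in PHGDH-siRNA, and 79.0% in Control-siRNA+Mix against 35.9% in Control-siRNA. The other 6 cathepsins together held 317 ± 79.6 FPKM in PHGDH-siRNA+Mix against 228 ± 30.7 FPKM in PHGDH-siRNA, and 316 ± 23.0 FPKM in Control-siRNA+Mix against 248 ± 58.5 FPKM in Control-siRNA. The 3 cystatins together held 189 ± 52.9 FPKM in PHGDH-siRNA+Mix against 123 ± 38.4 FPKM in PHGDH-siRNA, and 240.2 ± 12.3 FPKM in Control-siRNA+Mix against 139 ± 21.5 FPKM in Control-siRNA. The cathepsin sum was thus 5.48 to 6.996 times the cystatin sum in PHGDH-siRNA+Mix against 2.10 to 3.96 times in PHGDH-siRNA, and 5.93 to 6.44 times in Control-siRNA+Mix against 2.63 to 2.85 times in Control-siRNA. These are transcript levels, and the sums count CTSD, which cystatins do not inhibit. The sums cover only the members, so the shares and ratios hold for this list alone. The cystatin CST3 was left out, at 125.1 FPKM in PHGDH-siRNA+Mix, 117.2 in PHGDH-siRNA, 123.9 in Control-siRNA+Mix and 112.7 in Control-siRNA. The cathepsins CTSZ (90.1, 86.1, 87.1 and 79.8 FPKM in that order) and CTSA (35.5, 33.3, 30.0 and 27.8 FPKM) were left out too.

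**Figure D3:**
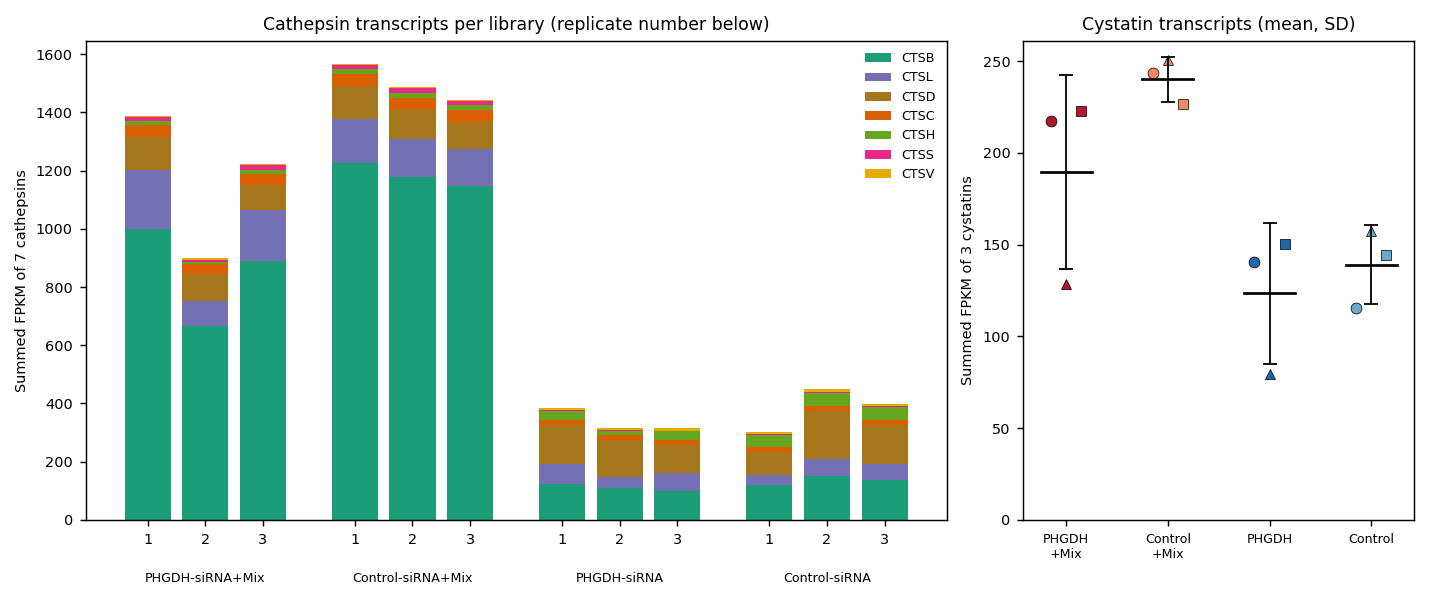
Left, summed FPKM of the 7 cathepsins in each library, stacked by gene; right, summed FPKM of the 3 cystatins, with mean ± SD (n = 3) and a shape per replicate. CTSB makes up 79.0% of the bars of Control-siRNA+Mix and 35.9% of those of Control-siRNA on average, and replicate 2 of PHGDH-siRNA+Mix has the lowest bar with Mix, at 898 FPKM.

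The order of the members by level shifted accordingly. In Control-siRNA+Mix CTSB led, followed by CSTA, CTSL, CTSD, CSTB, CTSC, CTSH, CTSS, CTSV and CST6, and no neighbours in that order overlapped. In Control-siRNA the order was CTSB, CTSD, CSTA, CTSL, CTSH, CSTB, CTSC, CTSV, CTSS and CST6, where CTSB overlapped with CTSD, CTSD with CSTA, and CTSL with CTSH. In PHGDH-siRNA+Mix CTSB again led, CTSL overlapped with CSTA and CSTA with CTSD, and CTSS overlapped with CTSH. In PHGDH-siRNA CTSD, CTSB, CSTA and CTSL led, each overlapping with the next, and CSTB overlapped with CTSH and CTSH with CTSC.

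PHGDH siRNA itself gave no call. Limma called 0 of the 10 members against control siRNA, without or with Mix, where it called 0.0412% and 0.0206% of all tested genes, and voom on recovered reads called 0 as well. At an unadjusted p under 0.05 there was 1 member in each comparison, CTSH without Mix and CTSB with Mix, beside 6.41% and 5.72% of all tested genes. With Mix the groups did not overlap for 4 members, all lower under PHGDH siRNA (CTSB, CTSC, CTSH and CSTA), where 7.33% of all tested genes were lower without overlap. Without Mix they did not overlap for 2 members, CTSH and CTSV, again lower, where 5.3% of all tested genes were. These comparisons share their libraries with the Mix comparisons above.

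CTSB averaged 852 ± 169 FPKM in PHGDH-siRNA+Mix and 1183 ± 40.2 FPKM in Control-siRNA+Mix, a change of -0.49 (95% interval -0.86 to -0.12, adjusted p = 0.698). The sign did not rest on replicate 2, since without replicate 2 of both PHGDH-siRNA groups the change was -0.33 (adjusted p = 0.411). Without Mix CTSB averaged 110.3 ± 12.04 FPKM in PHGDH-siRNA and 136 ± 16.0 FPKM in Control-siRNA (-0.30, interval -0.67 to 0.07, adjusted p = 0.882).

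CTSH averaged 25.1 ± 11.3 FPKM in PHGDH-siRNA and 44.7 ± 2.32 FPKM in Control-siRNA (-0.92, interval -1.75 to -0.09, adjusted p = 0.727). All 3 PHGDH-siRNA libraries lay below all 3 Control-siRNA libraries, replicate 2 far below. Without replicate 2 of both PHGDH-siRNA groups the difference was smaller, at -0.49, and was called (adjusted p = 0.0449), where 103 genes were called. With Mix CTSH averaged 11.6 ± 5.22 FPKM in PHGDH-siRNA+Mix and 17.0 ± 0.427 FPKM in Control-siRNA+Mix (-0.62, adjusted p = 0.979), and -0.20 without that pair (adjusted p = 0.391). For CSTA the change with Mix was -0.48 (interval -1.20 to 0.24), and -0.12 without the pair. The remaining members had changes of -0.31 to 0.25 without Mix and -0.37 to 0.29 with Mix, and CSTA without Mix stood at -0.30. Some of these rested on the pair. With Mix, leaving the pair out moved CTSS from -0.37 to -0.04, CTSL from 0.09 to 0.46 and CTSV from -0.30 to -0.50. Without Mix it moved CTSL from 0.18 to 0.47. None of these was called.

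The interaction, which asks whether the Mix response differs between the siRNA arms, was called by limma for 0 of the 10 members, as for 0 of all tested genes (0%), and voom called 0 members too. No member had an unadjusted p under 0.05, beside 1.72% of all tested genes. Estimates ran from -0.23 (CTSS, 95% interval -0.95 to 0.48) to 0.31 (CTSH, interval -0.87 to 1.48), and CTSB stood at -0.19 (interval -0.71 to 0.33). The interval was narrowest for CTSC (-0.47 to 0.20) and widest for CTSH. No difference between the arms was detected with 3 libraries a group, and differences inside these intervals remain possible. CTSS stood at 0.11 without replicate 2 of both PHGDH-siRNA groups.

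In replicate 2 of both PHGDH-siRNA groups, 3 of the 10 members (CTSH, CSTA and CTSL) were low by more than 0.8 log2 units. CST6 also lay below the mean of the other libraries, at 0.590 times in PHGDH-siRNA and 0.744 times in PHGDH-siRNA+Mix, on 6 and 9 reads. The remaining members did not share a direction. CTSH in that replicate was 0.383 times the mean of the other libraries in PHGDH-siRNA and 0.382 times in PHGDH-siRNA+Mix. CSTA was 0.476 and 0.470 times, and CTSL 0.545 and 0.453 times. CTSS was at 0.469 times in PHGDH-siRNA+Mix and at 1.06 times in PHGDH-siRNA, and CTSC was at 1.24 times in PHGDH-siRNA and 0.932 times in PHGDH-siRNA+Mix. CTSV went the other way with Mix, at 1.69 times. More than 0.8 log2 units lower in both replicate 2 libraries were 3 members, CTSH, CTSL and CSTA, and 623 of the 14577 tested genes (4.27%). More than 1 log2 unit lower in both were 2 members, CTSH and CSTA, and 326 tested genes (2.24%). Both margins were set after the values had been seen. In the control arm, Control-siRNA replicate 1 was low in CTSD (0.522 times the mean of the others), CSTB (0.618 times) and CTSL (0.626 times), and not in CTSC (0.989 times). The libraries of Control-siRNA+Mix differed least: 1 member, CST6 in replicate 1, lay more than 0.5 log2 units away.

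**Figure D4:**
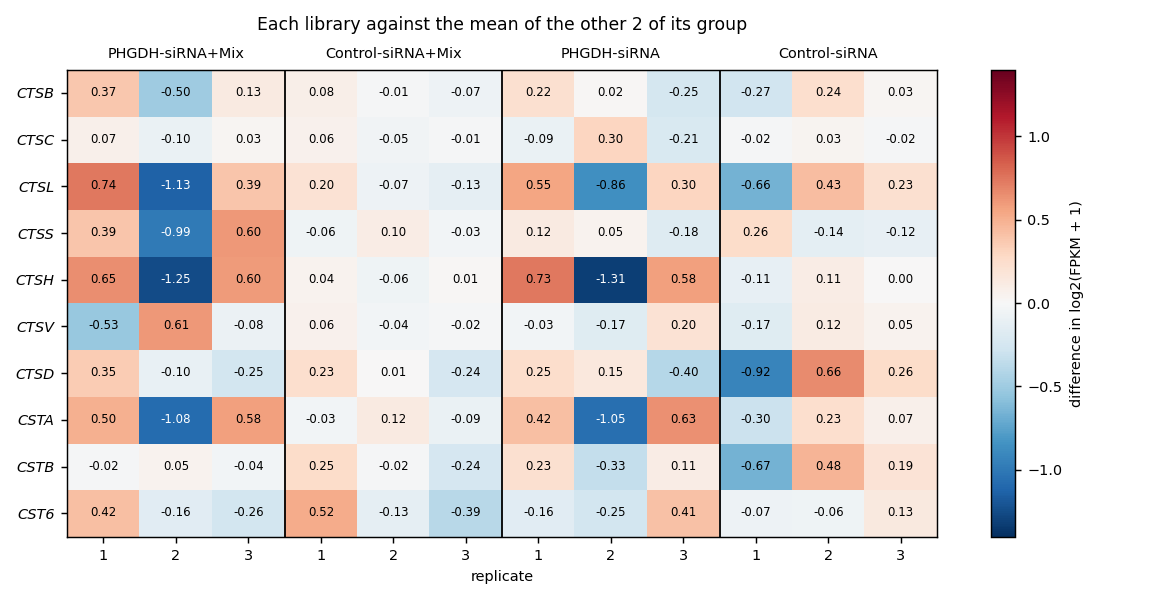
Difference in log2(FPKM + 1) between each library and the mean of the other libraries of its group, for each member (rows) and library (columns, by group and replicate); blue is lower. CTSH, CSTA and CTSL are blue in replicate 2 of both PHGDH-siRNA groups, from -1.31 to -0.86.

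Lists of genes around the cathepsins were put together by function. Of the 8 other cathepsins measured, 4 were tested and 0 were called in any comparison, and of 10 other cystatins and legumain 3 were tested and 0 called. Of 40 lysosomal hydrolases and membrane proteins, 37 were tested. Under PHGDH siRNA 3 rose with Mix and 0 fell, and under control siRNA 4 rose and 1 fell (median changes 0.20 and 0.14, beside 0.00 over all tested genes). These counts are near the share of all tested genes called, 8.86% under PHGDH siRNA and 9.54% under control siRNA, so they say nothing particular about the list. NPC1, the cholesterol exporter of the lysosome, was at 22.2 ± 5.23 FPKM in PHGDH-siRNA+Mix against 9.09 ± 1.37 FPKM in PHGDH-siRNA (1.19, adjusted p = 0.000893), and at 17.4 ± 0.250 FPKM in Control-siRNA+Mix against 8.77 ± 0.493 FPKM in Control-siRNA (0.92, adjusted p = 0.00391). ARSA, a sulfatase, was at 14.8 ± 1.14 FPKM in Control-siRNA+Mix against 7.10 ± 1.60 FPKM in Control-siRNA (0.98, adjusted p = 0.00200), with a change of 0.68 under PHGDH siRNA (adjusted p = 0.0181), and NEU1, a sialidase, was called in both arms (0.62 under PHGDH siRNA and 0.57 under control siRNA). The fourth was SGSH, a sulfatase of heparan sulfate, called only under control siRNA (0.86, adjusted p = 0.00247), and the one that fell was LIPA, the acid lipase, there (-0.56, adjusted p = 0.0120). No interaction was called for these genes.

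Of 6 genes for mannose 6-phosphate sorting, which carries cathepsin precursors to the lysosome, 1 rose in each arm, the receptor IGF2R (0.51 under PHGDH siRNA, adjusted p = 0.0335, and 0.52 under control siRNA, adjusted p = 0.0293). Of all tested genes, 5.22% were called up with Mix under PHGDH siRNA and 5.62% under control siRNA. Of 5 lysosomal transcription factors 3 were tested and 0 called. The change with the greatest size in these lists was in serpins that inhibit cathepsins: 2 of 3 rose with Mix in both arms, beside the same shares of all tested genes. For both, the SD exceeded the mean in PHGDH-siRNA, so the level there was uneven between libraries. SERPINB3, which inhibits cysteine cathepsins, was at 259.8 ± 134.7 FPKM in PHGDH-siRNA+Mix against 9.79 ± 15.2 FPKM in PHGDH-siRNA (5.62, adjusted p = 0.00207), and at 294 ± 54.7 FPKM in Control-siRNA+Mix against 1.68 ± 0.735 FPKM in Control-siRNA (6.80, adjusted p = 0.000473). SERPINB4, which inhibits serine proteases such as cathepsin G, was at 302 ± 121 FPKM in PHGDH-siRNA+Mix against 6.91 ± 10.0 FPKM in PHGDH-siRNA (5.996, adjusted p = 0.000414), and at 381 ± 59.1 FPKM in Control-siRNA+Mix against 1.39 ± 0.633 FPKM in Control-siRNA (7.34, adjusted p = 8.21e-05). These serpins are nearly identical copies, and how shared reads were counted is not given in the sources used here.

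Of 14 cornified envelope genes and transglutaminases 9 were tested. With Mix 3 rose in both arms (SPRR2A, SPRR1B and LCE3D), and 1 fell under PHGDH siRNA (IVL) and 2 under control siRNA (IVL and FLG). Of all tested genes, 5.22% rose and 3.64% fell under PHGDH siRNA, and 5.62% rose and 3.92% fell under control siRNA. FLG was near the floor, at 0.128 FPKM in Control-siRNA+Mix against 0.733 FPKM in Control-siRNA. It entered the test only through the groups without Mix, and LCE3D only through the groups with Mix. SPRR2A, a small proline-rich envelope protein, was at 6.22 ± 0.410 FPKM in Control-siRNA+Mix against 0.560 ± 0.375 FPKM in Control-siRNA (2.24, adjusted p = 8.93e-05), and IVL, involucrin, at 1.15 ± 0.262 FPKM in Control-siRNA+Mix against 4.31 ± 1.44 FPKM in Control-siRNA (-1.27, adjusted p = 0.00352). PHGDH siRNA against control siRNA gave 0 calls by limma in all of these lists.

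The genes most like each called member were found by Pearson's r of log2(FPKM + 1) over the 12 libraries, among tested genes of 5 FPKM or more, 3 per member, as a description. The 12 points fall into those with and without Mix, which sets most of each r. CTSB went with PDZK1IP1, S100A7 and CSF3 (r = 0.995, 0.995 and 0.992), and CTSC with SQOR, S100A9 and C1S (r = 0.997, 0.995 and 0.995). CTSS went with LCN2, TCIM and DEFB4A (r = 0.992, 0.991 and 0.989). CTSV, by contrast, went with NCAPD2, MCM5 and RAD54L (r = 0.990, 0.984 and 0.979), genes of chromosome condensation, replication and recombination. CTSL went with RTN2, CTTN and DAPK3 (r = 0.980, 0.978 and 0.977), CTSH with TEX261, PTGES and SF3B3 (r = 0.987, 0.983 and 0.982) and CSTB with CRELD2, R3HDM4 and TOR4A (r = 0.972, 0.959 and 0.958).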

How the data were processed

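RNA of 12 HaCaT libraries (4 groups of 3) was sequenced, and the authors deposited 1 table of FPKM values. Per the submitters' processing notes, CASAVA, HISAT2 2.0.5 and featureCounts 1.5.0-p3 were used with build hg38. Strand handling is not given in the sources used here. Whole reads were recovered from the FPKM steps and gene lengths to give depth, 16403845 to 20901128 reads per library.

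The 14577 genes whose average reached 0.5 FPKM in any group were fitted as log2(FPKM + 1) with limma 3.58.1 in R 4.3.3, with trend and robust settings, 1 mean per group and Benjamini-Hochberg adjustment. The procedure was also run on simulated counts. Those had a fixed spread between libraries and no outlying or paired libraries, so they do not test the calls made here. All 10 members passed, CST6 only through the PHGDH-siRNA groups. Every member is named with its level in every group. Members and lists were chosen with earlier results of these data known. Same-numbered libraries of PHGDH-siRNA+Mix and PHGDH-siRNA were taken as pairs from the data, not the labels, since all 3 correlations of their deviations were over 0.1 (0.46 to 0.77). No other 2 groups met this. Alternatives were the pseudocount, filter, scaling, voom, own-group fits, a replicate block and left-out libraries. Promoters came from RefSeq (GRCh38.p14). Protein sequences were not used here.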

Additional observations from a re-analysis of the deposited data

How the results depend on the processing

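Under PHGDH siRNA the count of members called with Mix, 5, was 3 with only the groups of the comparison (238 of all tested genes called). It was 4 to 6 when 1 library was left out. Under control siRNA the count, 7, was 4 with no filter on low values (939 of 32520 genes called) and 4 to 7 when 1 library was left out. Median scaling lost CTSH and CSTB there, with 1327 of all tested genes called. Without replicate 2 of both PHGDH-siRNA groups, CTSH and CSTA were added to the calls for Mix under PHGDH siRNA and CSTA under control siRNA. In that setting 1 member was called for PHGDH siRNA without Mix. Changes of sign were CTSC at -0.058 and CSTA at 0.048 there and CTSS at 0.11 in the interaction. None of these had been called. When 1 library was left out, PHGDH siRNA without Mix gave -0.058 to 0.11 for CTSC, -0.33 to 0.19 for CTSD, -0.036 to 0.47 for CTSL, -0.51 to 0.048 for CSTA and -0.18 to 0.20 for CSTB. With Mix it gave -0.19 to 0.0074 for CTSD and -0.16 to 0.46 for CTSL. Mix under control siRNA gave -0.52 to 0.0067 for CTSD and -0.059 to 0.24 for CST6. The interaction gave -0.13 to 0.72 for CTSH and -0.43 to 0.10 for CTSS. The cause was not tested. Voom on recovered reads moved the median of all genes to -0.10 for Mix under PHGDH siRNA and -0.06 under control siRNA.

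Correlations of the deviations of same-numbered libraries were over 0.1 in 5 of 18 pairs (-0.39 to 0.77), and in 3 of 3 only between the PHGDH-siRNA groups. With the replicate block over all libraries 5 members were called for Mix under PHGDH siRNA, 6 under control siRNA (CSTB was lost, adjusted p = 0.0660) and 0 in the other comparisons. With the replicate block in the PHGDH-siRNA arm 7 members and 3284 of all 14577 tested genes were called for Mix there, against 5 members and 1291 genes without it. Of the members' calls it changed those of CTSH and CSTA and no other. The fit of only the groups of the comparison was not run for the interaction, and CST6 has no value with the filter at 1 FPKM. Depth limits CST6, with 3 to 17 reads a library.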
